A study of Rattus norvegicus with 4 samples.

Results

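Immediate early genes are transcribed within minutes of a stimulus, from transcription factors already present in the cell. The 10 examined here were the AP-1 genes Fos, Fosb, Fosl2, Jun and Junb, the zinc finger genes Egr1 and Egr2, the nuclear receptor gene Nr4a1, Ier2, and the neuronal effector gene Arc. They were found by gene name or RefSeq transcript among the non-control probes, and each had 1 probe. These 10 probes, of 41012 on the array, gave 10 of the 21361 genes tested, and all 10 passed the filter on dim probes.

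The study hybridized RNA in 2 colours to 4 whole rat genome arrays from Agilent, which lay on 1 slide. CC was a co-culture of primary astrocytes from cortex of newborn Wistar rats with hippocampal neurons of mouse embryos plated on top, without further treatment. CC-CJ was the same kind of co-culture after cold jet, in which ice-cold buffer is squirted onto the well so that the neurons come off and the astrocytes stay. AA-CJ was astrocytes cultured without neurons under like conditions and also given cold jet.

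Cy3 carried CC-CJ on every array, and Cy5 carried AA-CJ on 2 arrays and CC on the other two. The contrast of CC-CJ with AA-CJ therefore sets astrocytes that had been with neurons against astrocytes that had not, both after cold jet. The contrast of CC-CJ with CC differs in cold jet and in the neurons it removes. The difference of the contrasts gives CC against AA-CJ, which differ in neurons and in cold jet but were read in the same dye. Dyes were not swapped, so CC-CJ and Cy3 cannot be told apart. The labels count 2 biological replicates per condition, each drawn from more than 3 independent samples, and arrays are named by those replicate numbers.

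Fos and Jun proteins pair to form the AP-1 transcription factor, and Egr proteins bind GC-rich sites through zinc fingers. In neurons these genes follow synaptic activity and calcium entry, and in astrocytes they follow growth factors, transmitters and stress. Their promoters are known for the serum response element with its CArG box, read by serum response factor, and for the cyclic AMP response element (CRE), read by CREB.

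Promoters from 250 bases before to 50 bases after the start (RefSeq, build GRCr8) were at hand for 7 of the 10 genes. Those of Fos, Jun and Arc were not in the set of promoters used here. A CArG box stood 2 times in the promoter of Egr1 and 1 time in that of Egr2, whereas 1.64% of all 33469 promoters of this length held one on either strand. The full CRE, TGACGTCA, stood only in that of Ier2 among these 7 and in 1.83% of all. Its core TGACG, which the full CRE contains, was found in Egr1, Egr2, Nr4a1, Junb and Ier2, and in 21.2% of all promoters. The AP-1 site TGANTCA was in none of the 7 windows and in 7.33% of all. The Egr site GCGNGGGCG occurred 2 times in Fosl2 and 1 time in Nr4a1, and in 4.98% of all. Each motif was searched on both strands, and a match is only a match of letters.

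The stretches below, on the strand of the gene, show these letters in 4 members, including both genes whose replicates differed most (Egr2, Nr4a1). Capitals mark the CArG box and the CRE core in Egr2, the CRE in Ier2, and the CRE core in Nr4a1 and Junb. The core reads CGTCA where it lies on the opposite strand. That of Egr2 is chr20:21054488-21054539 on the minus strand. On the plus strand, Ier2 is chr19:40399292-40399329, Nr4a1 is chr7:134260041-134260104 and Junb is chr19:40080956-40080990.
Egr2: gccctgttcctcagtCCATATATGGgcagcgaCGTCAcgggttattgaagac
Ier2: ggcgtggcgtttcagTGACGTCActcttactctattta
Nr4a1: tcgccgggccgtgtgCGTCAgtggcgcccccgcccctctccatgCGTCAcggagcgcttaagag
Junb: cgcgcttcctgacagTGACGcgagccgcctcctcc

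Both channels of every array had all 10 probes well above background, and none was saturated or marked as an outlier. Over all probes, 50.1% to 55.7% were well above background in Cy3 and 56.2% to 62.6% in Cy5. Jun, Egr1 and Arc each had 10 spots per array, and the other members had 1. Ratios are given as M, the log2 of Cy3 over Cy5 after background correction and loess, so that a positive M means a higher signal in CC-CJ. A gene was called at an adjusted p under 0.05 (limma, Benjamini-Hochberg over all 21361 genes). Precision is limited by there being 2 arrays to a contrast, and a level in these mixed RNAs cannot separate fewer cells from less RNA per cell. Neuronal mRNA was of mouse and the array of rat, so a value may read it less well than astrocyte mRNA.

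CC-CJ levels of like-numbered arrays nearly coincided. Over probes above background everywhere, the SD of the difference in log2 Cy3 level was 0.12 and 0.13 for arrays with the same number and 0.16 to 0.19 for the other pairs. For the 10 members, CC-CJ levels of like-numbered arrays lay 0.003 to 0.16 apart on the log2 scale. The labels do not say whether one CC-CJ extract served both, so CC-CJ may hold 2 samples rather than 4, and both contrasts with it share them.

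**Figure D1:**
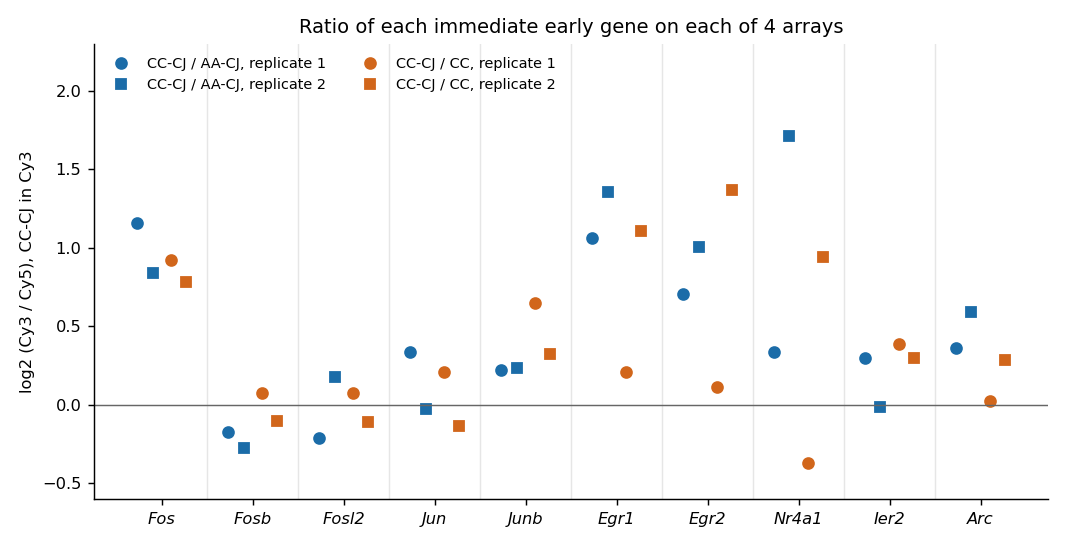
M (log2 of Cy3 over Cy5, y axis) of each gene on each of the 4 arrays. Circles are replicate 1 and squares replicate 2, blue for AA-CJ in Cy5 and orange for CC in Cy5. Fos lies between 0.78 and 1.16 on all 4 arrays, whereas Nr4a1 runs from -0.37 to 1.72.

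Fos, which binds DNA in a dimer with Jun, was called higher in CC-CJ than AA-CJ and higher than CC. Its probe was at 109561099 to 109561158 of chromosome 6 (rn4). M was 1.16 and 0.84 on the AA-CJ arrays and 0.92 and 0.78 on the CC arrays, so that every array had Fos higher in CC-CJ and the arrays of the contrasts overlapped. It rose by 1.00 on the log2 scale against AA-CJ (standard error 0.10, adjusted p = 0.00956, limma) and by 0.85 against CC (standard error 0.10, adjusted p = 0.00855). The rise against CC was the 7th largest of 21361 genes. Under median centring (the median of M taken off each array, with no loess) the values were 0.335 against AA-CJ, which was called, and 0.11 against CC (standard error 0.10, adjusted p = 0.378), which was not.

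Levels were computed from the same M, so that the gap between the 2 levels of an array restates M, here and for the other members. The log2 level of Fos, in array units, was 8.60 and 8.50 in replicate 1 of CC-CJ and 8.19 and 8.18 in replicate 2. In AA-CJ it was 7.43 and 7.35, and in CC 7.58 and 7.39. AA-CJ and CC differed by 0.15 (95% interval -0.20 to 0.50, adjusted p = 0.641, limma), which was not called. The call against AA-CJ was lost in 3 of 15 distinct alternative ways of processing or fitting (adjusted p from 0.00237 to 0.134), among them leaving out replicate 1 of AA-CJ (0.0508). Where an array is left out, the lone array of its contrast is assumed to vary like the arrays of the other contrast, here and wherever such a value is given. That against CC was lost in 2 (0.00132 to 0.378), namely median centring and an intensity trend in the prior variance.

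Junb, an AP-1 subunit that also restrains Jun, had M values of 0.22 and 0.24 on the AA-CJ arrays and 0.65 and 0.33 on the CC arrays. Its probe is on chromosome 19 of rn4, from 24832781 to 24832840. All 4 arrays were above 0, and the CC arrays were the higher ones. The difference from CC was 0.49 (standard error 0.10, adjusted p = 0.0698) and from AA-CJ 0.23 (adjusted p = 0.237, limma), and neither was called. Of 15 distinct alternatives, 4 called the difference from CC. It was called higher with a regression on position (0.49), the authors' processed table (0.61) and a block of crossed replicate numbers (0.49). Under median centring, which moved the median of all genes to -0.59 and -0.48, the values were -0.56 and -0.82, both called lower. Relative to those medians they were 0.026 against CC and -0.333 against AA-CJ.

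Jun, the partner of Fos in AP-1, was read by 10 spots, whose probe was at 115358764 to 115358823 of chromosome 5 (rn4). M was 0.34 and -0.03 against AA-CJ and 0.21 and -0.14 against CC, so that replicate 1 was above 0 and replicate 2 below 0 in both. Spots within an array had an SD of 0.02 to 0.04, which covers technical spread within the array only. Differences were 0.15 against AA-CJ (95% interval -0.15 to 0.45) and 0.04 against CC (-0.26 to 0.33), and neither was called. Under median centring they were -1.27 and -1.26, and both were called lower (adjusted p = 0.000132 and 0.00013, limma), as were 12525 and 13689 of all genes. Relative to the median of all genes these values of Jun were -0.783 and -0.667.

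Fosb and Fosl2, the other Fos family members, had M from -0.27 to 0.18 over both genes and all arrays. Fosb (chromosome 1 of rn4, 78668672 to 78668731) had M values of -0.18 and -0.27 against AA-CJ and 0.08 and -0.11 against CC. The difference from AA-CJ was -0.22 (95% interval -0.434 to -0.015, adjusted p = 0.196, limma), below 0 on both arrays and not called. Under median centring Fosb was -0.79 against AA-CJ and -0.615 against CC, and both were called lower (adjusted p = 0.000674 and 0.00206). Relative to the median of all genes these values were -0.301 and -0.025. Fosl2, for which the files give no position, had M values of -0.21 and 0.18 against AA-CJ and 0.08 and -0.11 against CC. Its 95% interval was -0.29 to 0.26 in both contrasts.

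Egr1, a zinc finger factor induced by growth factors and synaptic activity, rose in CC-CJ against AA-CJ. Its 10 spots shared a probe at 27347173 to 27347232 of chromosome 18 (rn4). M was 1.06 and 1.36 on the AA-CJ arrays and 0.21 and 1.11 on the CC arrays. All 4 arrays were above 0, and replicate 1 against CC stood apart from the other three. Spots of an array had an SD of 0.02 to 0.03, again a technical spread. Egr1 rose by 1.21 on the log2 scale against AA-CJ (standard error 0.20, adjusted p = 0.0345, limma), and under median centring the value was -0.03, which is 0.46 above the median of all genes. Against CC the difference was 0.66 (95% interval 0.18 to 1.13, adjusted p = 0.18), and under median centring it was -0.55 and was called lower (adjusted p = 0.0408). That value is 0.04 above the median of all genes.

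The levels of Egr1 split by replicate in CC-CJ. They were 11.41 and 11.46 in replicate 1 and 12.06 and 12.00 in replicate 2, against 10.35 and 10.70 in AA-CJ and 11.26 and 10.89 in CC. CC lay above AA-CJ by 0.55 (95% interval -0.12 to 1.22, adjusted p = 0.365, limma), which was not called. The call against AA-CJ was lost in 5 of 15 alternatives (adjusted p from 0.00104 to 0.915), including leaving out replicate 1 (0.0966) or replicate 2 (0.106) of AA-CJ. Without replicate 1 of CC the remaining array had a difference of 1.11 from CC (adjusted p = 0.00778, over a range of 0.00778 to 0.962), and without replicate 2 of CC the difference of CC from AA-CJ was 1.00 (0.0389, over 0.0389 to 0.845), with the spread taken from the AA-CJ arrays in both.

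Egr2, which shares the Egr zinc fingers and is known from myelinating Schwann cells, had a like pattern. Its probe is on chromosome 20 of rn4, from 21883940 to 21883999. M was 0.71 and 1.01 against AA-CJ and 0.11 and 1.37 against CC, above 0 on all 4 arrays and spread most between the CC arrays. The differences of 0.86 (standard error 0.26, adjusted p = 0.121) and 0.74 (adjusted p = 0.234, limma) were not called, and under median centring they were 0.25 and 0.03. Levels of CC-CJ were 7.86 and 7.74 in replicate 1 and 8.53 and 8.61 in replicate 2, against 7.15 and 7.52 in AA-CJ and 7.63 and 7.24 in CC. With the AA-CJ arrays fitted alone Egr2 was called at the same difference (adjusted p = 0.00564, over a range of 0.00564 to 0.379), and the single CC array left without replicate 1 had a difference of 1.37, with the spread of the AA-CJ arrays (adjusted p = 0.00302, over 0.00302 to 0.999).

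Nr4a1, an orphan nuclear receptor induced by calcium and cyclic AMP, varied most between replicates. Its probe is on chromosome 7 of rn4, from 140020442 to 140020501. M was 0.34 and 1.72 against AA-CJ and -0.37 and 0.94 against CC. Levels of CC-CJ were 8.42 and 8.58 in replicate 1 and 10.06 and 9.97 in replicate 2. In AA-CJ they were 8.08 and 8.34, and in CC 8.95 and 9.03. Replicate 1 of CC-CJ thus lay between AA-CJ and CC, and replicate 2 above both. Differences of 1.03 from AA-CJ (standard error 0.38, adjusted p = 0.173) and 0.28 from CC (95% interval -0.61 to 1.18, adjusted p = 0.745, limma) were not called, and under median centring they were 0.15 and -0.72. With the replicate number as a block the difference from AA-CJ was called (adjusted p = 0.0207, limma), and with crossed numbers it was not (0.135). The numbers were not taken to pair the arrays.

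The difference between the replicates of CC-CJ, replicate 2 minus replicate 1 in log2 level, was read on both pairs of arrays. For Nr4a1 it was 1.643 on the AA-CJ arrays and 1.396 on the CC arrays. It was 0.64 and 0.54 for Egr1 and 0.67 and 0.87 for Egr2. Fos went the other way, with -0.41 and -0.33, and so did Junb with -0.26 and -0.23. It was at most 0.25 in size for the other 5 members on either pair of arrays. Replicate 2 of CC-CJ therefore held more Egr1, Egr2 and Nr4a1 and less Fos and Junb than replicate 1, a description of 2 replicates with no test.

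**Figure D2:**
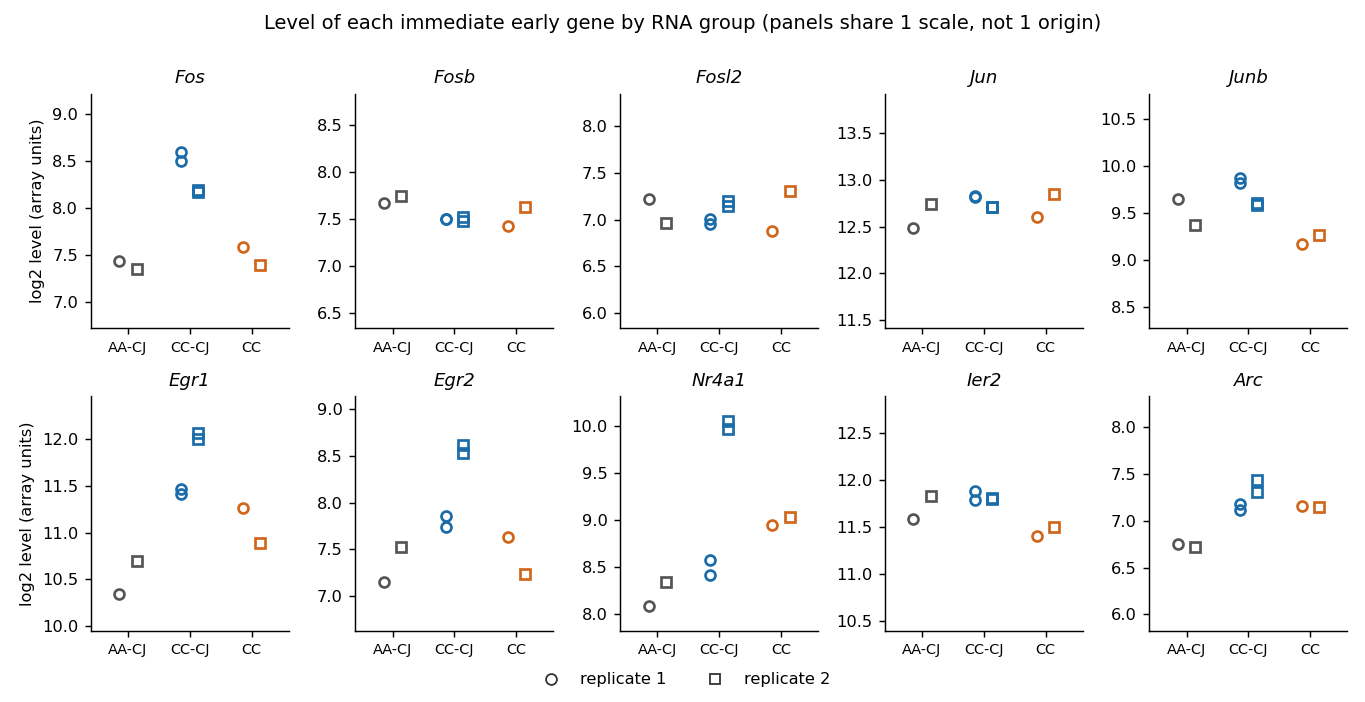
Log2 level in array units (y axis) of each gene in AA-CJ, CC-CJ and CC (x axis), with circles for replicate 1 and squares for replicate 2, and 1 point per array. All panels have the same scale around their own values, and levels of different probes are not to be set against each other. Fos, Egr1 and Egr2 have all 4 CC-CJ points, which are always in Cy3, above the other RNAs, which are always in Cy5. Replicate 2 of CC-CJ stands highest for Nr4a1.

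Ier2, a short-lived nuclear protein of the early serum response, was read on chromosome 19 of rn4, from 25160648 to 25160707. M was 0.30 and -0.01 against AA-CJ and 0.39 and 0.30 against CC. Both CC arrays were above 0, and replicate 2 of AA-CJ was at about 0. The differences were 0.34 from CC (95% interval 0.10 to 0.58, adjusted p = 0.169) and 0.14 from AA-CJ (adjusted p = 0.446, limma), and under median centring they were -0.88 and -1.17, both called lower. Relative to the median of all genes the values under median centring were -0.287 from CC and -0.683 from AA-CJ.

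Arc, a synaptic effector that controls uptake of AMPA receptors, had 10 spots of a probe at 112772025 to 112772084 of chromosome 7 (rn4). M was 0.36 and 0.59 against AA-CJ and 0.02 and 0.28 against CC. Spots within an array had an SD of 0.08 to 0.14. The difference from AA-CJ was 0.47 (standard error 0.10, adjusted p = 0.0607, over a range of 0.0403 to 0.233 in the alternatives), and 3 of 15 distinct alternatives called it. The value was 1.11 with Agilent's log ratio and 0.22 with median centring, under which the difference from CC was -0.30, against 0.15 after loess. Relative to the median of all genes under median centring, Arc was 0.71 against AA-CJ and 0.29 against CC. Arc levels were 6.75 and 6.72 in AA-CJ, 7.16 and 7.15 in CC, and 7.11 to 7.43 in CC-CJ. AA-CJ thus stood below both RNAs from co-culture, and CC was 0.32 above it (95% interval -0.03 to 0.67, adjusted p = 0.315, limma).

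For CC-CJ against AA-CJ as a whole, Fos and Egr1 were called higher and no member was called lower. Of all genes, 3.1% were called, with 1.94% higher and 1.16% lower. Under median centring 1 member, Fos, was called higher and 4 (Fosb, Jun, Junb and Ier2) were called lower. Of all genes, 709 were called higher and 12525 lower under it, and their median was -0.485. Relative to that median Fos was 0.82, Jun -0.78, Ier2 -0.68, Junb -0.33 and Fosb -0.30. Calls of a higher level made up 62.7% of all calls, 5.36% under median centring, 77.1% with a smaller offset and 89.6% with Agilent's log ratio. The median difference of the 10 members was 0.35, beside -0.02 over all genes. At an unadjusted p of 0.05, 6 of the 10 passed, and so did 22.6% of all genes. Beyond the mean by 2 SD of all probes on both arrays, a limit that is part of the selection criteria in the methods, Fos, Egr1 and Egr2 were higher, where 1.64% of all probes passed in either direction.

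For CC-CJ against CC, Fos was called higher and none lower, where 2.36% of all genes were called, 0.0983% higher and 2.26% lower. Under median centring none was called higher and 6 (Fosb, Jun, Junb, Egr1, Ier2 and Arc) were called lower. Of all genes, 641 were called higher and 13689 lower under it, and their median was -0.59. Calls of a higher level made up 4.17% of all calls, and 22.1% with the authors' processed table. The median of the members was 0.31, beside -0.02 over all genes. At an unadjusted p of 0.05, 5 of the 10 passed, and 16.9% of all genes did. Among all genes sorted from the highest difference, Fos was at place 7, Egr2 at 14, Egr1 at 18 and Junb at 78. Of the members, Fos alone was beyond the limit of 2 SD on both arrays, where 1.39% of all probes were.

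For CC against AA-CJ, which were both in Cy5, no member was called, whereas 2.66% of all genes were called, 2.58% higher and 0.0796% lower in CC. No member passed an unadjusted p of 0.05 either, which 17.8% of all genes did. The median was 0.12, beside 0.00 over all genes. The widest differences were 0.74 for Nr4a1 (95% interval -0.52 to 2.01), with 0.71 and 0.78 between like-numbered arrays, and 0.55 for Egr1, with 0.86 and 0.25. Egr2 had 0.59 and -0.36, so that the arrays disagreed in direction. The upper ends of the 95% intervals were 2.01 for Nr4a1, 1.22 for Egr1 and 1.00 for Egr2, and at most 0.67 for the other 7 members. Since the fit did not pair the arrays, the spread between replicates of CC-CJ enters these intervals. For Nr4a1 that difference between replicates was 1.643 on the AA-CJ arrays and 1.396 on the CC arrays.

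**Figure D3:**
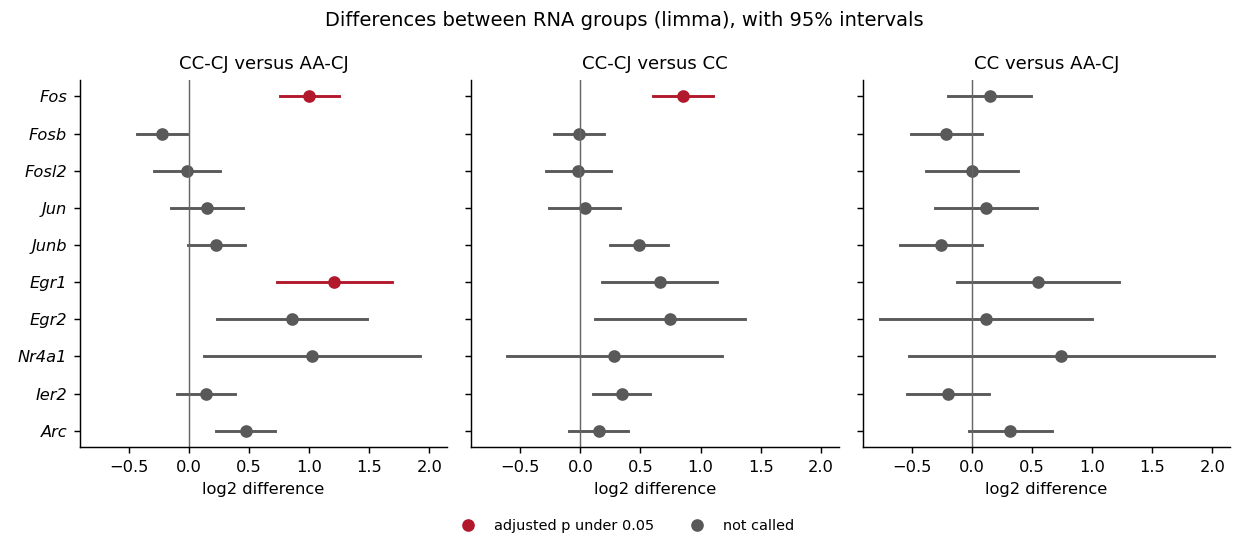
Log2 difference (x axis) of each gene in the 3 comparisons, as point with 95% interval from limma over 4 arrays. Red marks an adjusted p under 0.05, which Fos has in both contrasts with CC-CJ and Egr1 in the first, and no gene has in CC against AA-CJ. Under median centring in place of loess, Egr1 against AA-CJ was -0.03 and Fos against CC 0.11.

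Since CC-CJ was always in Cy3, the mean of both contrasts holds what CC-CJ and the dye have in common. On it, Fos was 0.93 (adjusted p = 0.00338), Egr1 0.935 (0.0251) and Junb 0.36 (0.049), and these 3 members were called (limma). Under median centring Fos was 0.22, Egr1 -0.29 and Junb -0.69, where the median of all genes was -0.54. Of 16 distinct alternatives, 10 did not call Junb, 3 did not call Egr1 and 1 did not call Fos, and median centring called Junb lower. These p-values take the 4 CC-CJ channels as separate samples. With like-numbered arrays averaged first, an alternative added after the data were seen, so that CC-CJ counts as 2 samples, the adjusted p was 0.00174 for Fos, 0.00947 for Egr1, 0.0236 for Junb and 0.0282 for Egr2, the fourth member called, with 1 residual degree of freedom and a prior of 6.24. That fit called 7.6% of all genes. In the fit over 4 arrays Egr2 had 0.80 (adjusted p = 0.0687), Arc 0.31 (0.0689), Nr4a1 0.66 (0.208) and Ier2 0.24 (0.11). Of all genes, 3.55% were called in that fit, 1.11% higher and 2.44% lower. Without swapped dyes, CC-CJ and Cy3 cannot be told apart on these arrays for Fos, Egr1 or Junb. For Egr1 the paper reports a higher level in CC-CJ than AA-CJ by quantitative PCR, in samples other than those on the arrays. CC against AA-CJ is free of a common dye effect but gives no value for CC-CJ. It was computed through the CC-CJ channels of all 4 arrays, and their differences between arrays enter it.

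Few genes behaved like Fos. Only 5 of 21361 genes had an M of at least 0.5 on all 4 arrays, a limit set after the values were seen. They were Fos, Thbs4, RGD1307559 and 2 listed as S57440 and BQ206806. By distance over the 4 M values, the nearest genes to Fos were Thbs4 (distance 0.445), Ctsc (0.719) and Errfi1 (0.735). Thbs4 is a secreted matrix protein and Ctsc a lysosomal protease. The nearest to Egr1 were Errfi1 (0.519), Egr2 (0.571) and Ptgds (0.764), which makes prostaglandin D2.

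The other genes of the pathway were taken from lists chosen with earlier results known. Of 17 other immediate early transcription factors tested, none was called in CC-CJ against AA-CJ, where 3 passed an unadjusted p of 0.05 (22.6% of all genes did), and the list's median was 0.00. Nr4a3, the relative of Nr4a1, was the only one called elsewhere. It fell by 1.03 in CC-CJ against CC (adjusted p = 0.00132) and was 1.35 higher in CC than in AA-CJ (adjusted p = 0.00176, limma). The median of this list was -0.04 against CC, beside 0.31 for the 10 members and -0.02 for all genes.

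Among 22 early response and feedback genes tested, Errfi1, an inhibitor of the EGF receptor, was called 0.97 higher in CC-CJ than AA-CJ (adjusted p = 0.02), and under median centring the value was -0.41, which is 0.07 above the median of all genes. Its difference from CC was 0.57 (adjusted p = 0.0941). Rgs2, a brake on G protein signals, fell by 0.66 against CC (adjusted p = 0.0243) and was 0.96 higher in CC than in AA-CJ (adjusted p = 0.0229, limma). The medians of this list were 0.11, -0.07 and 0.13 in the 3 comparisons.

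Of 10 activity-regulated effector genes tested, Npy, a neuropeptide, was 1.28 higher in CC-CJ than AA-CJ (adjusted p = 0.00271). Vgf, a secreted neuronal peptide precursor, fell by 1.77 against CC, and Rgs4 fell by 0.94 (adjusted p = 0.00682 and 0.00211, limma). In CC against AA-CJ these 3 were called higher, by 1.77 for Npy, 2.502 for Vgf and 1.18 for Rgs4. Of 16 upstream kinases and transcription factors, Camk2b fell by 1.18 and Mapk8 fell by 0.69 against CC, and both were called higher in CC than in AA-CJ. That difference was 0.93 for Mapk8, and for Camk2b no size is given, since it was above background on 1 of 2 AA-CJ arrays.

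CC had no cold jet, and genes known to respond to heat or cold were set beside the members. Of 9 heat shock and stress chaperones, Hsp90aa1 was called 0.52 higher in CC-CJ than AA-CJ (adjusted p = 0.0302), with -0.69 under median centring, and 0.91 higher in CC than in AA-CJ (adjusted p = 0.0111, limma). None was called in CC-CJ against CC, where 3 of 9 passed an unadjusted p of 0.05, as did 16.9% of all genes. Hspa1a, the inducible HSP70, had -0.21 against AA-CJ and -0.04 against CC. The cold-inducible RNA-binding genes Cirbp and Rbm3 had -0.12 and -0.52 against CC (adjusted p = 0.516 and 0.247). The part of handling in the values of Fos and Egr1 was not tested.

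Neuron markers fell against CC, where Fos rose. Of 10 neuron markers tested, 7 were called lower than in CC, with a list median of -1.70, and 4 were called higher in CC-CJ than AA-CJ. Gap43, a growth cone protein, fell by 2.76 against CC and was 2.03 higher than in AA-CJ. Mapt, which encodes tau, fell by 2.87 against CC and was 0.63 higher than in AA-CJ. In 6 other scalings that difference from AA-CJ ran from 0.26 to 1.38 and was called in 4. Dcx fell by 3.70 and Elavl4 fell by 2.82 against CC, and neither was above background in AA-CJ, so that CC-CJ was at least 1.83-fold and 1.41-fold higher. For those bounds AA-CJ was given its own signal or, where higher, the dimmest signal that counted as well above background.

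The summed level of the 10 neuron markers was 8533 to 9108 array units in AA-CJ, 8099 to 8468 in CC-CJ and 18910 to 19509 in CC, with Snap25 above background in neither AA-CJ nor CC-CJ. In CC all 10 were above background. Most of the sum in AA-CJ and CC-CJ lay in markers other than Gap43, Mapt, Dcx and Elavl4. It therefore does not show that these 4 were called higher in CC-CJ than AA-CJ. Fos lay below CC-CJ both in AA-CJ and in CC, while Arc in CC lay within the range of CC-CJ. The neurons were of mouse and the array of rat, and how well each probe reads mouse mRNA was not tested. The part of neuronal mRNA in the values of the members was not tested either.

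Astrocyte markers, 9 of 9 above background in every RNA, summed to 37280 to 44223 in AA-CJ, 40894 to 44553 in CC-CJ and 40928 to 41331 in CC, and 1 of the 9, Aqp4, was called (0.51 above AA-CJ, adjusted p = 0.031, limma), with -0.07 under median centring and a call in 3 of 6 other scalings. Of 4 microglia markers, Tyrobp was called 0.77 higher in CC-CJ than AA-CJ and fell by 0.74 against CC, and Aif1, above background only in CC, was at least 1.45-fold higher there than in CC-CJ. Their sum was 413 to 503 in AA-CJ, 520 to 582 in CC-CJ and 785 to 820 in CC. Of 3 endothelial markers tested, from a list of 7, Kdr alone was called, 2.62 higher than in AA-CJ, where Cdh5 had 0.25 and Vwf -0.03. Their sum was 252 to 295 in AA-CJ, 728 to 814 in CC-CJ and 813 to 826 in CC. The rise of that sum follows Kdr and does not stand for Cdh5 and Vwf. Of 9 markers of the oligodendrocyte lineage, Sox10 alone was called, lower than in CC, where the list's median was -0.15, and no size is given, since it was above background on 3 of 4 CC-CJ arrays. Of 6 fibroblast and pericyte markers, Dcn alone was called against CC, where it fell by 0.77 and the list's median was -0.14. The sums of these 2 lists were 3104 to 3340 and 49734 to 53702 in CC-CJ, 3609 to 4304 and 52385 to 55359 in CC, and 3266 to 3755 and 48690 to 52447 in AA-CJ, so that those of fibroblasts overlapped. The part of these cells in the values of the 10 genes was not tested.

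**Figure D4:**
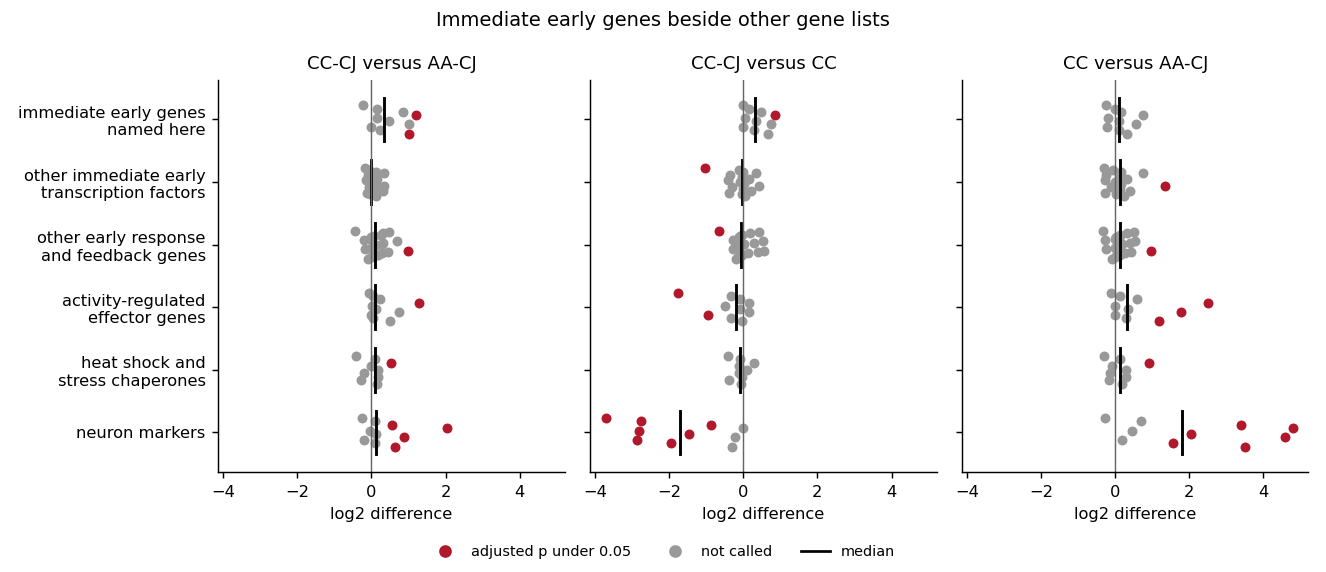
Log2 difference (x axis) of every gene tested in 6 lists (rows) for the 3 comparisons, with red for an adjusted p under 0.05, grey for other genes and a black line for the median of the list. The 10 genes named here have medians of 0.35, 0.31 and 0.12, and the neuron markers 0.12, -1.70 and 1.80. Under median centring the red points of Egr1, Errfi1 and Hsp90aa1 against AA-CJ lay below 0.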

How the data were processed

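The authors deposited, for each of 4 arrays, spot intensities from Agilent Feature Extraction 9.5.1.1 (mean signal and local background) and its log10 ratio of Cy5 over Cy3, corrected and dye-normalized by that software. They also deposited a table of processed log2 ratios per spot. It was read as log2 of Cy5 over Cy3, since its slope on Agilent's log2 ratio was 0.887 to 1.07 over spots above 500 in both channels, although it was 0.26 to 0.301 over all spots, dim ones included. The methods name OLIN and OSLIN for normalization. The table's column medians were -0.0247 to 0.0085, and how it was centred is not given in the sources used here.

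Here, in R 4.3.3 with limma 3.58.1, signals were corrected by normexp (offset 50) and M was normalized by loess within arrays (span 0.3). Control spots had weight 0, and spots with outlier marks (121 to 179 an array) were removed. Spots of a probe were averaged. Probes were kept where 1 or more of the RNA groups had them well above background on all its arrays (24863 probes), and a gene is the mean of its kept probes. Levels per channel were taken after loess and Aquantile. RefSeq's gene table gave a symbol to 10835 of the 16321 probes that carry a RefSeq accession, and the name in the files was used elsewhere. Probe positions are those of rn4 in the file headers. Promoters and motifs come from RefSeq on GRCr8.

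Each contrast had a coefficient in lmFit, with 2 residual degrees of freedom and a prior of 4.71 from eBayes, and CC against AA-CJ was their difference. P-values are two-sided and Benjamini-Hochberg adjusted over 21361 genes. The 10 members and all gene lists were chosen with earlier results of these data known. All members were named, as were genes called in a list (at most 4 per list and comparison) and the 3 genes nearest to each called member by Euclidean distance. The steps were tested on simulated data. Alternatives covered background correction, offset, normalization (with a regression on position by locfit 1.5.9.12), source of the values, filter on dim probes, probe choice, prior variance, arrays in the fit, the replicate number as a block, the limit of 2 SD in the methods' selection criteria and each array left out.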

Additional observations from a re-analysis of the deposited data

How the results depend on the processing

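With 2 arrays per comparison, single arrays decide several calls. With 1 array left out, the lone array of its contrast is assumed to vary like those of the other contrast. Fos was called in 12 of 15 distinct alternatives against AA-CJ and in 13 of 15 against CC, with values above 0 in all of them (0.335 and 0.109 at the lowest, under median centring). Egr1 against AA-CJ was called in 10 of 15. Fitting the arrays of a contrast alone and leaving out either array of the other contrast are the same fit and were counted as 1. The cause of the changes below was not tested.

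Members called in CC-CJ against AA-CJ were 2, both higher, and became 5 with median centring (1 higher, 4 lower), 0 with Agilent's log ratio, 0 with an intensity trend in eBayes and 4 with the arrays of that contrast alone (Fos, Egr1, Egr2 and Arc), a fit that called 1121 of all genes against 662. Leaving out 1 array gave 0 to 4, with 0 without replicate 1 of AA-CJ, 1 without replicate 2 of AA-CJ, and 4 without either CC array. Members called in CC-CJ against CC were 1, higher, and became 6 with median centring (all 6 lower), 0 with the trend, 2 with a regression on position and 2 with the authors' processed table. Leaving out 1 array gave 1 to 3, with 3 without replicate 1 of CC, where 620 of all genes were called against 504. Members called in CC against AA-CJ were 0 and stayed 0 except without replicate 2 of CC, so that the range was 0 to 1.

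The median of the members in CC-CJ against AA-CJ, 0.35, was 0.48 with offset 16, 0.69 with Agilent's log ratio and -0.18 with median centring, and 0.34 to 0.41 with 1 array left out. Against CC, 0.31, it was -0.56 with median centring and 0.16 to 0.31 with 1 array left out. For CC against AA-CJ, 0.12, it was 0.029 with the authors' table and 0.01 to 0.092 with 1 array left out.

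Median centring in place of loess put the median of all genes at -0.48 against AA-CJ and -0.59 against CC and called 13234 and 14330 genes. Under it the sign turned for Jun (-1.27), Junb (-0.82), Egr1 (-0.028) and Ier2 (-1.17) against AA-CJ, and for Jun (-1.26), Junb (-0.56), Egr1 (-0.55), Ier2 (-0.88), Arc (-0.30) and Nr4a1 (-0.72, not called) against CC. On the mean of both contrasts it turned for Jun (-1.26), Junb (-0.69), Egr1 (-0.29) and Ier2 (-1.02), and for Nr4a1 (-0.28) and Arc (-0.04), which were not called. Relative to the median of all genes, Fos was 0.82 and 0.70, Egr1 0.46 and 0.04, Junb -0.33 and 0.03, Jun -0.78 and -0.67, Ier2 -0.68 and -0.29, and Nr4a1 0.64 and -0.13. Arc was 0.71 and 0.29 on that scale, above 0 as after loess, and Fosb was -0.301 and -0.025.

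Deviations in M of like-numbered arrays correlated at -0.11 over 21361 genes, and the labels name no shared animals or day, so the numbers were not taken to pair the arrays, although the CC-CJ levels of like-numbered arrays nearly coincided. With the replicate number as a block, 3 members were called against AA-CJ (Fos, Egr1 and Nr4a1), and Nr4a1 passed at an adjusted p of 0.0207 (range over alternatives 0.0207 to 0.725). All genes called fell from 662 to 170 against AA-CJ, from 504 to 306 against CC and from 568 to 294 in CC against AA-CJ under that block. A block with crossed numbers, added after the data were seen, called 3 members against AA-CJ, 2 against CC and 0 in CC against AA-CJ, and 1492, 849 and 828 of all genes. Agilent's log ratio called 77 genes against AA-CJ, the trend 188, offset 16 called 336, and leaving out replicate 1 of AA-CJ 108.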
